A study of Mus musculus with 10 samples.

Results

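The genes described here are 31 subunits and partners of the Polycomb repressive complexes PRC1 and PRC2, with the enzymes that remove the histone marks these complexes place. They were taken by name from a list that leaves out Bmi1 and its paralogs of the Pcgf family, and they stand among 18193 genes that the arrays measured by a probe set with 1 gene symbol. Of the 31 genes, 30 had such a probe set. Both probe sets of Rybp also list its pseudogene, so no value is given for it. Cbx7 lay under the filter on dim probe sets, with signals of 13.5 to 86.2 on its brightest probe set, which left 29 genes that were tested.

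The study asked, by its title, what part Bmi1 has in the shift of gene expression brought about by sonic hedgehog (Shh). Primary cultures of cerebellar granule cell precursors, the dividing cells of the young cerebellum that become granule neurons, were made from Bmi1 knockout (Bmi-1-/-) or wild type mouse pups. The 4 groups were knockout with Shh (2 arrays), wild type with Shh (2), knockout untreated (3) and wild type untreated (3), and each array held RNA of 1 culture. All cultures grew in high glucose Dulbecco medium with 10% fetal calf serum, 20 mM KCl, glutamine and penicillin with streptomycin for 24 hours, and Shh was added for 24 hours at a concentration labelled as 3 mg/ml. Pups were of postnatal day 5 to 7 by the sample labels. Strain, sex, the deleted part of Bmi1 and the number of pups per culture are not given in the sources used here. Wild type untreated replicate 3 was used as untreated after its title, although its treatment note speaks of Shh where applicable.

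Polycomb complexes keep genes silent through chromatin. PRC2, built on Ezh1 or Ezh2 with Eed and Suz12, methylates a lysine in the tail of histone H3, while PRC1, built on Ring1 or Rnf2 with a Pcgf protein such as Bmi1, attaches ubiquitin to histone H2A. Canonical PRC1 carries a Cbx protein that reads the PRC2 mark and a Phc protein that lets complexes cluster, variant PRC1 carries Rybp or Yaf2 instead, and Kdm6a, Kdm6b and the Bap1 complex take the marks off again. Bmi1 is known in the cerebellum for keeping granule cell precursors dividing.

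The promoters of 6 of these genes are shown because the results turn on the first 3, whose signal was higher with Shh in both genotypes, and because the last 3 hold a run of letters bound by E2F factors, which drive genes of DNA replication. Each window runs from 250 bases before to 50 bases after the annotated start, 5′ to 3′ on the strand of the gene, from the RefSeq annotation of GRCm38.p6. Capitals mark the E2F letters.
Mtf2, chr5:108065424-108065723, plus strand: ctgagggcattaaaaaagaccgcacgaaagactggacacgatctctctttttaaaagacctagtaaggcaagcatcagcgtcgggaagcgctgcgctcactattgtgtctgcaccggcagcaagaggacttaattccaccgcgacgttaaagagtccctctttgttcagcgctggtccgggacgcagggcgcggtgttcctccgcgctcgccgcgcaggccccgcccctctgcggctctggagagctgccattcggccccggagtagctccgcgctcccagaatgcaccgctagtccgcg
Eed, chr7:89980927-89981226, minus strand: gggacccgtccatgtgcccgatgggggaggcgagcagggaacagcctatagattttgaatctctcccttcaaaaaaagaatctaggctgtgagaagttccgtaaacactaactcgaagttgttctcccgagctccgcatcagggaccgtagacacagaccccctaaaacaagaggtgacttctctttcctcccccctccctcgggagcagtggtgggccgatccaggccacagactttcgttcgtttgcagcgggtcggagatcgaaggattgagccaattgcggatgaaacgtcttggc
Asxl1, chr2:153345580-153345879, plus strand: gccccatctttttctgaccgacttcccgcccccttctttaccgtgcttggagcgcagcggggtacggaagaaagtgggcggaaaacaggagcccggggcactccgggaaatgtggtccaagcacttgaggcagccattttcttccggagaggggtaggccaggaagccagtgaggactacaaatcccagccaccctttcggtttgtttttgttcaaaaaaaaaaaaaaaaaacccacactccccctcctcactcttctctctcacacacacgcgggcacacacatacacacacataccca
Ezh2, chr6:47594981-47595280, minus strand: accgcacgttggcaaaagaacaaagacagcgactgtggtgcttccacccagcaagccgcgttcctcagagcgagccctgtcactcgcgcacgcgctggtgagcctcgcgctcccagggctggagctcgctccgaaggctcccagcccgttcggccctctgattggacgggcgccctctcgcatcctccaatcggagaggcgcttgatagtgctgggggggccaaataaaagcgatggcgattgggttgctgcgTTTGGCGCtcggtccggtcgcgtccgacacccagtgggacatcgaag
Suz12, chr11:79992856-79993155, plus strand: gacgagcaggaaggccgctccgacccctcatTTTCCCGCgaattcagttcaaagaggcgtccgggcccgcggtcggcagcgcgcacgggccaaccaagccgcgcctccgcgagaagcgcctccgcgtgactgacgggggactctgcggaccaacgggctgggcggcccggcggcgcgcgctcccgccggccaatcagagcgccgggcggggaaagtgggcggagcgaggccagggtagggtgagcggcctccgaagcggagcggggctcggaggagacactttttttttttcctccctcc
Phf19, chr2:34913927-34914226, minus strand: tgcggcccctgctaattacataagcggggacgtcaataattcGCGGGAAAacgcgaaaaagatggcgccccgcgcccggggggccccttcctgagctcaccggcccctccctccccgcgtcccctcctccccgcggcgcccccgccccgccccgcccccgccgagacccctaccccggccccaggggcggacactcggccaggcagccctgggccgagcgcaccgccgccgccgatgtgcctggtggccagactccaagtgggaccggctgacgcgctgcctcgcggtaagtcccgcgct

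The letters searched on both strands were TTTCCCGC, TTTCGCGC, TTTGCCGC and TTTGGCGC for E2F and GACCACCCA for Gli factors, which carry the Shh signal to the genome. Promoter windows were available for 27 of the 31 genes, 38 windows in all. E2F letters stood in 3 of these 27 genes, or 11.1%, against 2.60% of all 27025 genes in the annotation table. In Ezh2 they were TTTGGCGC at bases 254 to 261 of the window, in Suz12 TTTCCCGC at bases 32 to 39, and in Phf19 TTTCCCGC on the opposite strand at bases 43 to 50. The Gli letters stood in 0 of the 38 windows and in 0.253% of all windows. With letters this rare, so few windows cannot show whether these genes have fewer or more of them. The windows of the Polycomb genes were also rich in CG, with a median of 24 CG dinucleotides and a GC content of 64.33%, against 7 and 52.67% over all windows. Neither Mtf2, Eed nor Asxl1 held either motif in these windows.

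Every array had the same trimmed mean signal of 500, and the median signal was 66.6 to 72.1 with Shh against 84.4 to 90.9 untreated. The brighter Bmi1 probe set still read 3424 ± 11.8 in knockout with Shh (SD, n = 2), 4340 ± 248 in wild type with Shh (n = 2), 3610 ± 259 in knockout untreated (n = 3) and 3958 ± 290 in wild type untreated cultures (n = 3). The labels thus have no check from the targeted gene, because its probes may lie outside the deleted part. Gli1, a target gene of Shh signalling, read 1987 and 1550.1 in knockout with Shh, 1665 and 1745 in wild type with Shh, 1193, 1156 and 1199 in untreated knockout and 853, 763.6 and 857 in untreated wild type cultures. Wild type untreated replicate 3 had the 763.6, the lowest of all 10 arrays. All 7 markers of granule cell precursors passed the filter. The 18S ribosomal control was high in replicate 6 of the untreated knockout (6301) and replicate 1 of the untreated wild type (2030.3), and between 219 and 649 elsewhere. The signal of Xist was above that of the Y-linked gene Eif2s3y for replicates 1, 2, 3, 6 and 8, and under it for the remaining 5. In RNA of whole cultures, fewer cells of a type and less RNA per cell cannot be told apart.

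Loss of Bmi1 moved none of the 29 Polycomb genes past the test. With limma and Benjamini-Hochberg adjustment over all 11405 genes tested (threshold 0.05), 0 were called between knockout and wild type cultures untreated, with Shh, or averaged over both conditions. Among all genes the called shares were 0.377% untreated, 0.728% with Shh and 1.54% for the average. At an unadjusted p under 0.05 the Polycomb genes gave 1, 1 and 2, against 8.68%, 9.76% and 13.0% of all genes. The 95% interval of the average genotype difference lay within a 1.5-fold change either way for 27 of 29 genes. The exceptions were Cbx8 (0.811 to 1.68 times the wild type level) and Phf19 (0.625 to 1.45 times), both with large spread between arrays. The median difference of the Polycomb genes was 0.02 on the log2 scale, as it was for all genes.

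**Figure D1:**
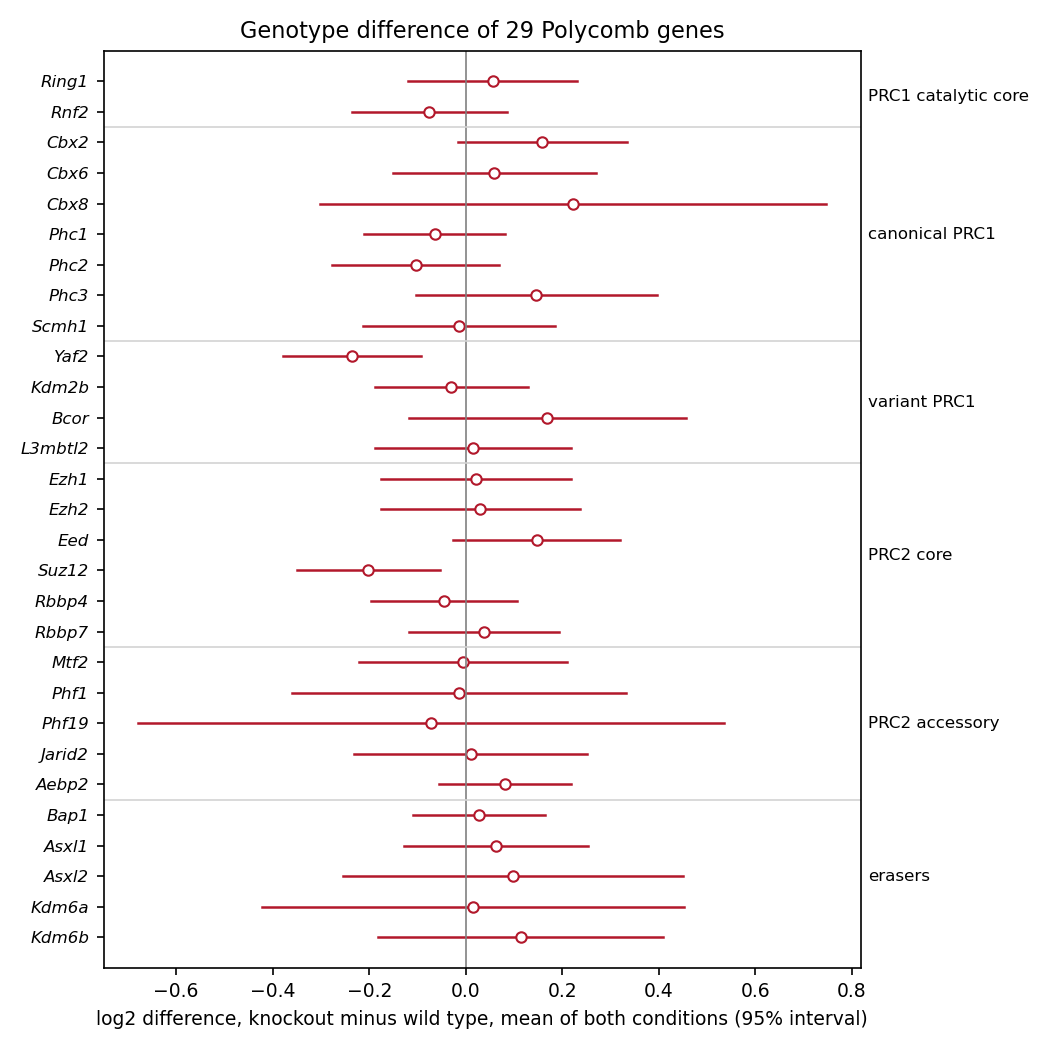
Log2 difference of each of 29 Polycomb genes between Bmi1 knockout and wild type cultures, averaged over Shh-treated and untreated cultures (circles) with its 95% interval (lines). Genes run down the page by complex, and the open circles show that 0 passed the test, Yaf2 and Suz12 being the only ones whose interval lies wholly on 1 side of 0.

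The lowest averages belonged to Yaf2 and Suz12. Yaf2, which binds Ring1 or Rnf2 in variant PRC1, had signals of 3707 and 3523 in knockout cultures with Shh, against 4281 and 4425 in wild type cultures with Shh. Untreated, it read 4014, 4178 and 3805 in knockout cultures, against 4514, 4849 and 4436 in wild type cultures. Every knockout culture thus lay below every wild type culture in the same condition. The average difference was -0.24 (SE 0.06), or 0.850 times the wild type level with a 95% interval of 0.769 to 0.938, and its adjusted p of 0.130 missed the threshold.

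Suz12, the PRC2 subunit that holds the complex together, showed the same order. Its signals were 2118 and 2190.0 in knockout with Shh, against 2549 and 2463 in wild type with Shh. In untreated cultures they were 1870.1, 1982 and 1802 in knockout, against 2013, 2139.9 and 2279.8 in wild type. The groups did not overlap in either condition, and the average difference of -0.20 (SE 0.07) had an adjusted p of 0.213. All 4 Suz12 probe sets past the filter had a negative average difference, from -0.17 to -0.28, and the second Yaf2 probe set had -0.19 (SE 0.08). None of these probe sets passed the test.

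Array by array, few of these genes separated the genotypes, at shares close to those of all genes. Untreated, the knockout and wild type arrays did not overlap for 3 of the 29 genes (10.3%), namely Yaf2 and Suz12 below and Aebp2 above, against 13.3% of all genes. With Shh, where only 2 arrays face 2, it was 10 of 29 (34.5%) against 39.1%. The genotype difference had the same sign in both conditions for 19 of 29 genes (65.5%, against 60.9% of all genes), with a Pearson correlation across these genes of 0.11, and 0.42 across all genes. Genes are not independent replicates, and both differences share 1 estimate of spread.

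The catalytic subunits of both complexes kept close to the wild type level. Ring1, a ubiquitin ligase of PRC1, averaged 479 ± 38.3 in knockout with Shh, against 464 ± 37.2 in wild type with Shh (SD, n = 2 each). Ezh2, the methyltransferase of dividing cells, averaged 4676 ± 305 in knockout with Shh, against 4587 ± 169 in wild type with Shh. Untreated, Ezh2 averaged 4498 ± 633 in knockout and 4368 ± 251 in wild type cultures (n = 3 each), and its average log2 difference was 0.03 with a 95% interval of -0.18 to 0.24. The intervals of Ring1, Rnf2 and Ezh1 all included 0 as well.

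Among the readers and clustering subunits of canonical PRC1, Cbx2 had the average difference with the smallest adjusted p, 0.16 (SE 0.08, adjusted p = 0.429). Phc1, Phc2 and Phc3, the Polyhomeotic proteins, had averages of -0.06, -0.10 and 0.15. In the PRC2 core, Eed had an average of 0.15 (SE 0.08, adjusted p = 0.468). The erasers Bap1, Asxl1, Asxl2, Kdm6a and Kdm6b all had averages between 0.02 and 0.11, each smaller than its own standard error.

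With Shh, a few Polycomb genes rose and none fell. In knockout cultures 3 of the 29 rose: Mtf2, Eed and Asxl1. The same 3 rose in wild type cultures, together with Aebp2, Kdm2b and Cbx2. These are 10.3% and 20.7% of the genes tested, against 28% and 33.8% of all genes called in either direction. By direction, 11% of all genes were called higher in knockout and 14% in wild type cultures, while 17% and 19.8% were called lower, against 0 of the Polycomb genes. The median Shh response of the Polycomb genes was 0.10 in knockout and 0.12 in wild type cultures on the log2 scale, against -0.01 in both genotypes over all genes.

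These counts rest on few arrays, and Shh went with replicate number, 1 to 6 being all untreated and 7 to 10 all treated. Without wild type Shh replicate 7 the wild type count was 2, without replicate 9 it was 3 with Bcor lower, and without wild type untreated replicate 5 it was 4 with Kdm6a lower. Mtf2 and Eed kept their calls with any single array left out. Asxl1 missed the threshold in knockout without knockout Shh replicate 10 (adjusted p = 0.0577) and in wild type cultures without wild type Shh replicate 7 or 9 (0.0663 and 0.0565). Aebp2, Kdm2b and Cbx2 missed it without either of those 2 wild type arrays or without wild type untreated replicate 5, and Cbx2 also without wild type untreated replicate 3, with adjusted p-values of up to 0.0812, 0.143 and 0.133.

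The scale mattered for the counts as well. With arrays centred on a common median, which moves the median of all genes to 0.29 in knockout and 0.33 in wild type cultures, 16 and 20 Polycomb genes were called higher. All genes were then split 4348 higher to 1127 lower in knockout and 5181 to 1243 in wild type cultures, against 1260 to 1939 and 1593 to 2262 on the deposited scale.

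**Figure D2:**
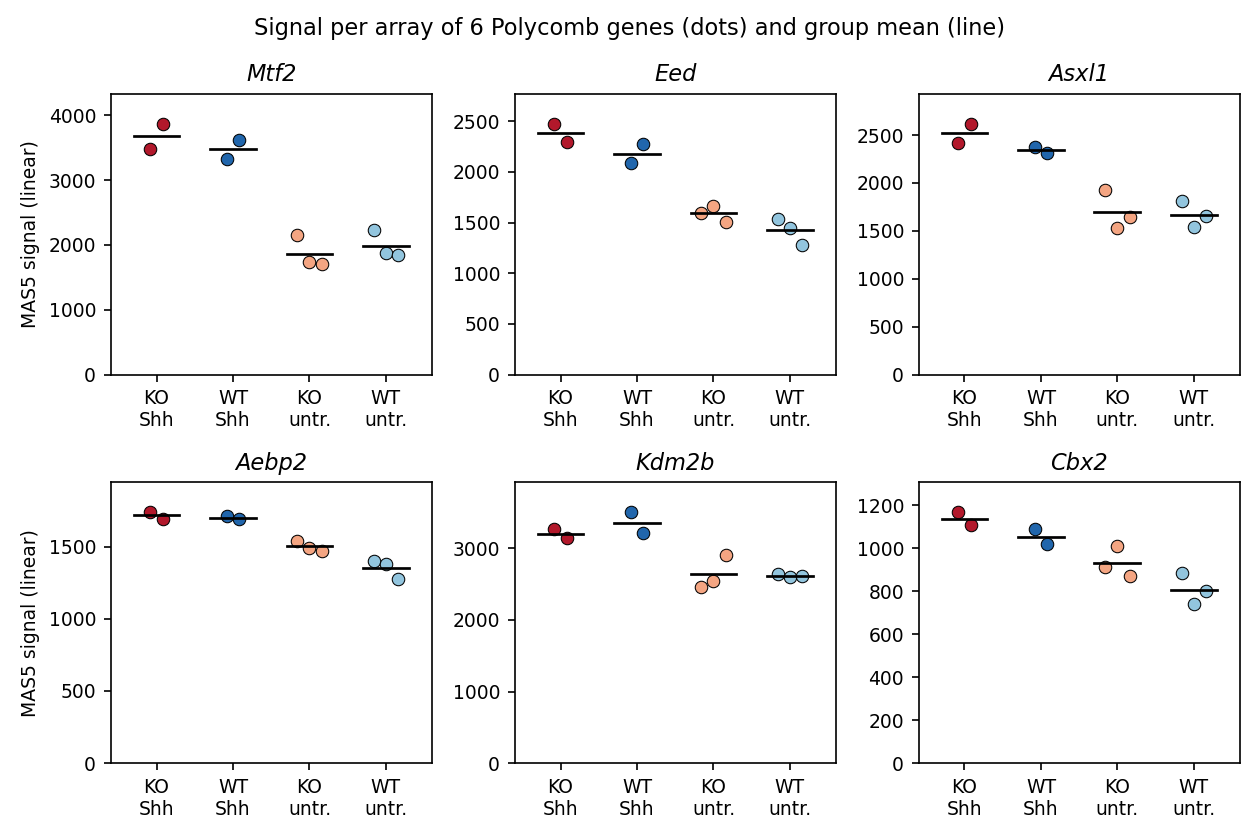
Signal on each array (dots, linear scale from 0) and group mean (line) of the 6 Polycomb genes that passed the test for Shh in at least 1 genotype. All 6 genes, chosen by that test, lie higher on all 4 Shh arrays than on all 6 untreated arrays. Such separation was common, as treated and untreated arrays did not overlap for 55.7% of all genes in knockout and 58.6% in wild type cultures. The fold changes are largest for Mtf2, 1.98 in knockout and 1.76 in wild type cultures.

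Mtf2, a Polycomb-like protein that guides PRC2 to unmethylated CG-rich DNA, changed most. Its signals were 3478 and 3869.9 in knockout cultures with Shh, against 2148, 1732 and 1709.6 in untreated knockout cultures. Wild type cultures read 3323 and 3619 with Shh, against 2230.4, 1876 and 1842 untreated. The lowest treated array thus lay well above the highest untreated one in either genotype. The level was 1.98 times the untreated one in knockout (log2 difference 0.99, SE 0.14, adjusted p = 0.000900) and 1.76 times in wild type cultures (0.81, SE 0.14, adjusted p = 0.00192).

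Eed, the PRC2 subunit that reads the methyl mark and stimulates the enzyme, had signals of 2477 and 2292 in knockout with Shh, against 1599, 1669 and 1503 in untreated knockout cultures. Wild type cultures had 2084 and 2274 with Shh, against 1539.9, 1449 and 1280.2 untreated. Treated and untreated arrays did not overlap. The fold changes were 1.50 in knockout (log2 difference 0.58, SE 0.11, adjusted p = 0.00411) and 1.53 in wild type cultures (0.62, SE 0.11, adjusted p = 0.00251).

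Asxl1, the partner that activates the deubiquitinase Bap1, read 2417 and 2619.5 in knockout with Shh, against 1922, 1535 and 1645 in untreated knockout cultures. Wild type cultures read 2373 and 2317 with Shh, against 1809.6, 1539 and 1652 untreated. Here too the groups stood apart, with a log2 difference of 0.57 in knockout (SE 0.12, adjusted p = 0.00727) and 0.50 in wild type cultures (SE 0.12, adjusted p = 0.0117). Bap1 itself had differences of -0.03 and -0.01, and the paralog Asxl2 had 0.16 and 0.30 with adjusted p-values of 0.636 and 0.327.

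The 3 genes called in wild type cultures alone had positive differences in knockout cultures too. Aebp2, a DNA-binding PRC2 partner, had 1739 and 1694 in knockout with Shh against 1539, 1494 and 1472 in untreated knockout cultures. For wild type cultures it was 1709.6 and 1694 with Shh against 1403, 1381 and 1274 untreated. All treated arrays lay above all untreated ones, and the log2 differences were 0.19 in knockout (SE 0.09, adjusted p = 0.125) and 0.33 in wild type cultures (SE 0.09, adjusted p = 0.0160).

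Kdm2b, which binds CG-rich DNA and brings a variant PRC1 there, had 3269 and 3139 in knockout with Shh against 2461, 2538 and 2904 in untreated knockout cultures. The wild type values were 3503 and 3212 with Shh against 2645, 2599.5 and 2605 untreated. The groups did not overlap in either genotype. The log2 differences were 0.29 in knockout (SE 0.10, adjusted p = 0.0600) and 0.36 in wild type cultures (SE 0.10, adjusted p = 0.0220).

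Cbx2, a chromodomain reader of canonical PRC1, had 1167 and 1105 in knockout with Shh against 912, 1009 and 869.9 in untreated knockout cultures. Wild type cultures gave 1088 and 1018 with Shh against 882, 738 and 799 untreated. Again no treated array fell among the untreated ones. The log2 differences were 0.29 in knockout (SE 0.11, adjusted p = 0.0778) and 0.39 in wild type cultures (SE 0.11, adjusted p = 0.0235).

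The response itself was not shown to differ between the genotypes. For the interaction, which sets the Shh difference in knockout against that in wild type cultures, 0 of the 29 Polycomb genes passed limma's test and 0 had an unadjusted p under 0.05, against 0.00877% and 4.92% of all genes. The interaction was -0.14 (95% interval -0.41 to 0.13) for Aebp2, -0.07 (-0.39 to 0.24) for Kdm2b and -0.10 (-0.45 to 0.25) for Cbx2. The Shh difference had the same sign in both genotypes for 27 of 29 genes (93.1%, against 84.6% of all genes), with a Pearson correlation across these genes of 0.82, and 0.91 across all genes. With 2 treated arrays per genotype, the intervals of Aebp2, Kdm2b and Cbx2 include interactions of either sign.

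**Figure D3:**
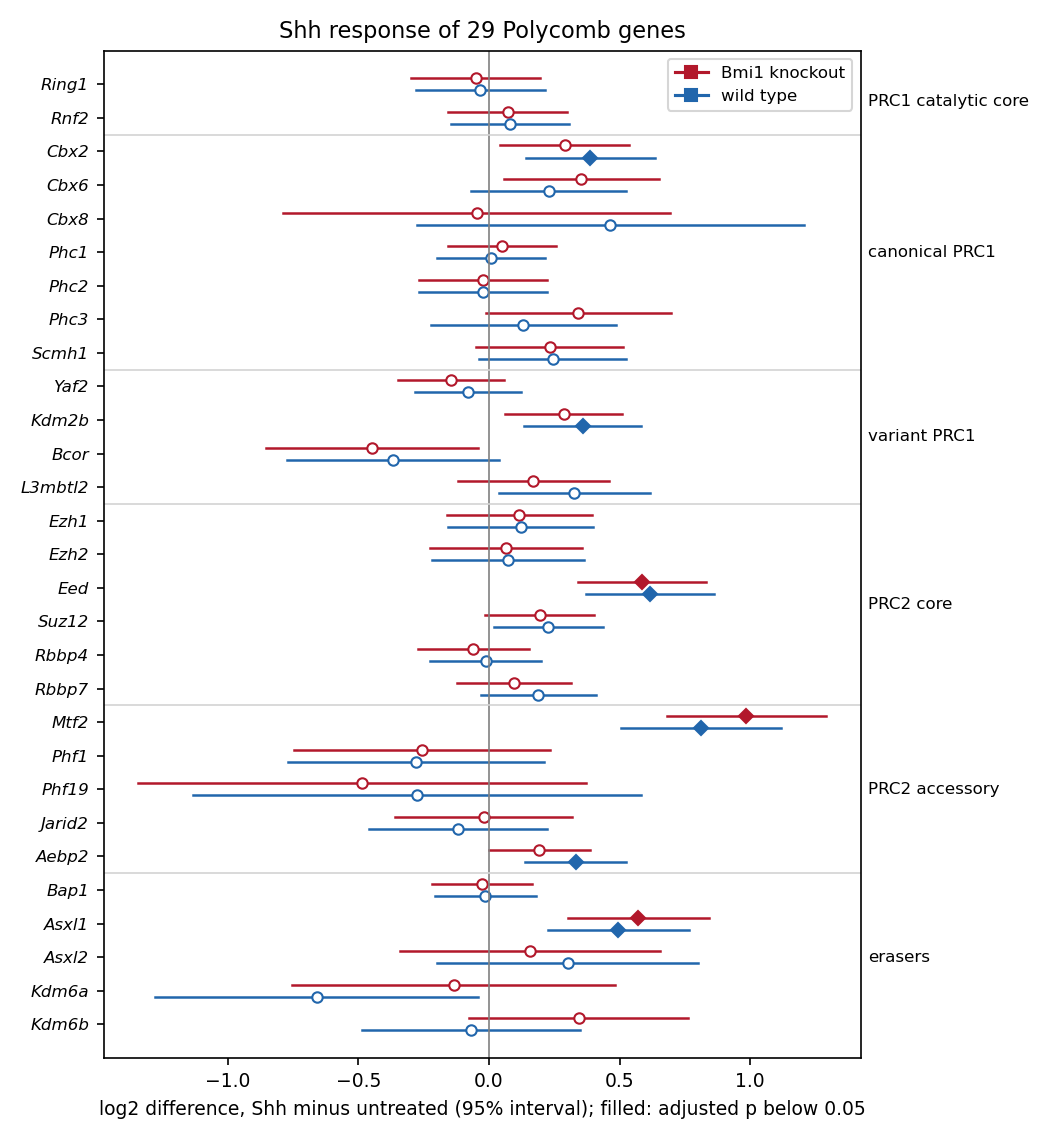
Log2 difference between Shh-treated and untreated cultures for 29 Polycomb genes in Bmi1 knockout (red, upper line of each pair) and wild type cultures (blue, lower line), with 95% intervals. Filled diamonds mark the 3 genes called in knockout and the 6 called in wild type cultures.

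The rest of the list gave smaller or less certain values. Ring1 and Rnf2 had Shh differences between -0.05 and 0.08 in both genotypes. Ezh2 had 0.06 in knockout (95% interval -0.23 to 0.36) and 0.07 in wild type cultures (-0.22 to 0.37), and Ezh1 had 0.12 in both. Suz12 had 0.19 in knockout (adjusted p = 0.154) and 0.23 in wild type cultures (adjusted p = 0.0894), with all treated arrays above the untreated ones. The histone-binding subunits Rbbp4 and Rbbp7 had -0.06 and 0.10 in knockout and -0.01 and 0.19 in wild type cultures. Of the PRC2 core, therefore, Eed was the 1 of 6 genes that passed.

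Among other PRC2 partners, Jarid2, which helps PRC2 settle on chromatin, had -0.02 in knockout and -0.12 in wild type cultures on its brightest probe set. In knockout its dimmer probe sets read higher with Shh, without passing the test. There 1422697_s_at read 2998 and 2687 against 2416, 2292 and 2524 untreated, and 1450710_at read 934 and 1120 against 927, 746 and 747. In wild type cultures treated and untreated arrays overlapped on both. The remaining Polycomb-like proteins ran lower than Mtf2, with Phf1 at -0.26 and -0.28 and Phf19 at -0.49 and -0.28, none of them past the test. Phf19, whose promoter holds E2F letters, was dim and scattered, at 81.0 to 84.0 in knockout with Shh against 74.1 to 197.0 in untreated knockout cultures.

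In PRC1, Cbx6 had 0.35 in knockout (adjusted p = 0.0752) and 0.23 in wild type cultures (adjusted p = 0.214), and Cbx8 had -0.05 and 0.46 with standard errors of 0.33. Phc1 and Phc2 had between -0.02 and 0.05 in both genotypes, Phc3 had 0.34 and 0.13, and Scmh1, a partner of the Phc proteins, had 0.23 and 0.24. In variant PRC1, L3mbtl2 had 0.17 and 0.33 and Yaf2 had -0.15 and -0.08. Bcor, a corepressor of the Kdm2b complex, had the lowest variant PRC1 values, 263 and 306 in knockout with Shh against 426, 356 and 383 in untreated knockout cultures (log2 difference -0.45, SE 0.18, adjusted p = 0.0948). The demethylase Kdm6b had 0.34 in knockout (adjusted p = 0.203) and -0.07 in wild type cultures (adjusted p = 0.801).

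Read over single arrays, Shh-treated and untreated cultures did not overlap for 13 of 29 genes in each genotype (44.8%), 11 above and 2 below, against 55.7% of all genes in knockout and 58.6% in wild type cultures. The genes below were Yaf2 and Bcor in knockout and Yaf2 and Kdm6a in wild type cultures. In size, the median Shh difference regardless of sign was 0.17 in knockout and 0.23 in wild type cultures, against 0.25 and 0.28 over all genes. The 95% interval stayed within a 1.5-fold change either way for 17 genes in knockout and 18 in wild type cultures.

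Other measures moved with Shh alongside these genes. Of 15 proliferation genes tested, 6 rose in knockout and 11 in wild type cultures and none fell, and their summed signal was 91832 to 101360 with Shh against 77996 to 82498 untreated in knockout, and 105386 to 107249 against 73467 to 82773 in wild type cultures. Summed markers of granule cell precursors were 29455 to 30432 with Shh against 27918 to 30654 untreated in knockout, and 30244 to 30711 against 29119.5 to 32482 in wild type cultures. Of these 7 markers, 2 were called higher with Shh in each genotype and 0 lower.

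Markers of other cell types were mostly lower with Shh, other than those of granule neurons. The summed granule neuron markers were 22593 to 25077 with Shh against 23143 to 24957 untreated in knockout and 25872 to 26461 against 22828 to 32584 in wild type cultures, where 1 of 3 past the filter fell. Of 6 astrocyte and Bergmann glia genes, 5 fell in each genotype and 1 rose in knockout cultures, and their sum was 13278 to 14484 against 34008 to 34868 in knockout and 10131 to 10701 against 29521 to 41118 in wild type cultures. Of 6 microglial genes 4 fell in each genotype, with sums of 1793 to 2481 against 4970.1 to 5661 in knockout and 3124 to 3238 against 6045 to 8919 in wild type cultures. Of 5 oligodendrocyte lineage genes past the filter, 3 fell and 1 rose in knockout and 4 fell and 1 rose in wild type cultures. Of 4 fibroblast and meningeal genes 3 fell in each genotype, and of 4 genes of GABAergic interneurons 2 fell in knockout and 3 in wild type cultures. All 3 Purkinje cell genes fell in both genotypes. Both endothelial genes past the filter fell, while Pecam1 and Cdh5 lay under it, with a summed signal of 137 to 143 with Shh against 3128 to 3232 untreated in knockout, and 166 to 194 against 2459 to 3614 in wild type cultures. The part of these shifts in the Polycomb results was not tested.

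Of the 29 genes, 20 had at least 2 probe sets past the filter, which gave 31 further probe sets to set beside those above. A fit over all 20200 probe sets past the filter called 21.6% of them for Shh in knockout and 26.9% in wild type cultures. Of the 31 further Polycomb probe sets, 6 rose and 1 fell in knockout, and 5 rose and 3 fell in wild type cultures. For genotype untreated, with Shh and averaged, and for the interaction, 0 of the 31 passed limma's test, against 0.203%, 0.381%, 0.762% and 0% of all probe sets.

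Mtf2 rose by every probe set past the filter. All 4 passed the test in both genotypes, with log2 differences of 0.66 to 0.99 in knockout and 0.53 to 0.93 in wild type cultures. Both Kdm2b probe sets were positive too, with 0.29 and 0.32 in knockout and 0.36 and 0.31 in wild type cultures, and so were both Cbx2 probe sets, but the dimmer one of each gene did not pass in either genotype. Cbx6 rose in both genotypes by its second probe set, 1429290_at, with signals of 1548 and 1504 in knockout with Shh against 954, 996 and 1035 in untreated knockout cultures. Its log2 differences were 0.62 in knockout (SE 0.10, adjusted p = 0.00351) and 0.71 in wild type cultures (SE 0.10, adjusted p = 0.00134), larger than those of its brighter probe set.

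For other genes the probe sets disagreed. Aebp2 rose by 1437743_at in both genotypes (0.69 and 0.93) and by 1435070_at in knockout (0.69), while 1455616_at fell in wild type cultures by 1.17 and had -0.84 in knockout (adjusted p = 0.0718). On that last probe set Aebp2 read 83.6 and 86.8 in knockout with Shh against 212, 111 and 151 in untreated knockout cultures. The second Asxl1 probe set, 1435077_at, had -0.28 in knockout (adjusted p = 0.177) and -0.05 in wild type cultures (adjusted p = 0.810), unlike the brighter one. Rbbp4 fell by 1456260_at in both genotypes, with log2 differences of -0.74 and -0.98, while its brightest probe set had -0.06 and -0.01. Its probe sets 1454875_a_at and 1454791_a_at read higher with Shh but did not pass. In knockout, 1454875_a_at read 2493 and 2622 against 1525 to 2419 untreated, and in wild type 2853 and 3119 against 2344 to 2555. For 1454791_a_at it was 2472 and 2177 against 1461 to 2091 in knockout, and 2580 and 2820 against 1906 to 2075 in wild type. Which transcripts the probe sets share was not tested, so the calls for Aebp2 and Asxl1 hold for the named probe set only. With the mean of all probe sets of a gene, Eed (adjusted p = 0.305 in knockout and 0.227 in wild type), Asxl1 (0.777 and 0.647) and, in wild type cultures, Aebp2 (0.908), Kdm2b (0.0715) and Cbx2 (0.242) missed the threshold, while Mtf2 passed it. That mean also takes in probe sets under the filter. For Eed, which had no second probe set past the filter, it took in 1453830_at, with signals of 20.7 to 51.7.

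**Figure D4:**
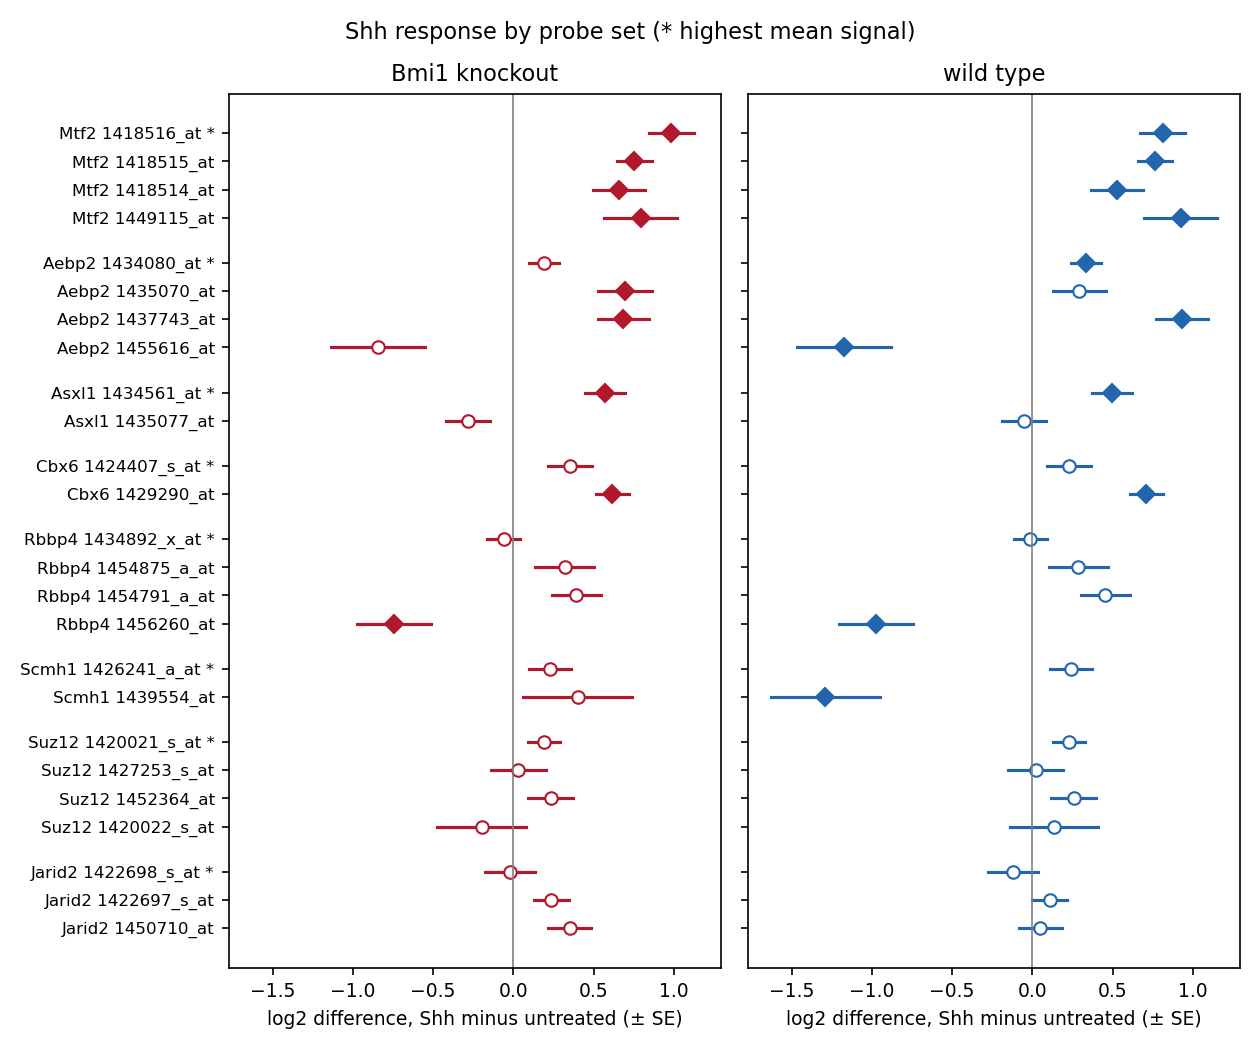
Log2 difference between Shh-treated and untreated cultures (points) with its standard error (lines) for each probe set past the filter of 8 Polycomb genes, in Bmi1 knockout (left) and wild type cultures (right), from the fit over all probe sets. Filled diamonds passed the test, the star marks the probe set with the highest mean, and the 4 Mtf2 probe sets lie together while those of Aebp2 and Rbbp4 fall on both sides of 0.

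Kdm6a, an X-linked demethylase known in the mouse to escape X inactivation, varied with the sex markers of the arrays on its brighter probe set, 1427672_a_at. Its signals were 655 and 517 in knockout with Shh, 421 and 548 in wild type with Shh, 739.6, 471 and 751 in untreated knockout and 1002, 764 and 570.3 in untreated wild type cultures. The 5 highest values were those of the 5 arrays on which Xist exceeded Eif2s3y. Both Shh-treated wild type arrays were among the others, and the Shh difference in wild type cultures was -0.66 (SE 0.27, adjusted p = 0.0936), against -0.29 (adjusted p = 0.288) with the marker class as a covariate. That covariate was chosen after seeing the data, and over all 23 alternatives the adjusted p ranged between 0.0416 and 0.482. The dimmer Kdm6a probe set past the filter, 1427235_at, did not separate the marker classes. It read 428 to 609 on the arrays where Xist exceeded Eif2s3y and 263 to 497 on the rest.

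**Figure D5:**
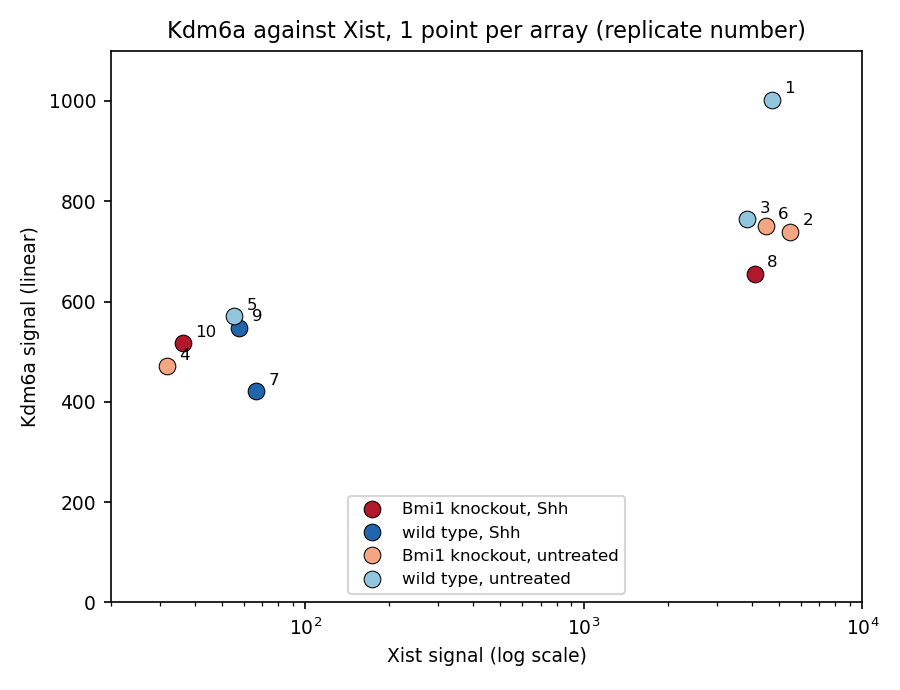
Signal of the brighter Kdm6a probe set (linear axis) against that of Xist (log axis) on each of 10 arrays, coloured by group and numbered by replicate. The 5 arrays with high Xist read 655 to 1002 on this Kdm6a probe set and the other 5 read 421 to 570.3.

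A wider list of 42 Polycomb genes that are not among the 31, such as the Pcgf paralogs and partners of variant PRC1, was set beside them. Of 34 tested, 0 passed for genotype untreated and 0 with Shh, and 1 passed for the average, Lcor, whose locus encodes a PRC2 partner. That is 2.94% of the list, near the 1.54% of all genes called for the average. Lcor read 1267 and 1144 in knockout with Shh against 864 and 697 in wild type with Shh, and 892, 927 and 952 in untreated knockout against 656, 816 and 746 in untreated wild type cultures. The average difference was 0.48 (SE 0.09, adjusted p = 0.0376), with all knockout arrays above all wild type arrays of the same condition. Whether this call holds with an array left out or under other processing was not tested.

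With Shh, 4 of the 34 rose and 1 fell in knockout, and 9 rose and 0 fell in wild type cultures, or 14.7% and 26.5% called, against 28% and 33.8% of all genes. All genes were called higher at 11% and 14%. Pcgf3, a core subunit of a variant PRC1, had the largest differences, 1.04 in knockout (SE 0.18, adjusted p = 0.00261) and 0.87 in wild type cultures (SE 0.18, adjusted p = 0.00492). Its signals were 1917 and 1837 in knockout with Shh, against 1147, 793 and 840.3 in untreated knockout cultures. Phf13 and L3mbtl3 passed in both genotypes too, at 0.78 and 0.53 in knockout and 0.59 and 0.52 in wild type cultures. Asxl3, a paralog of Asxl1, rose (0.58) and the H2A deubiquitinase Mysm1 fell (by 0.42) in knockout cultures, against -0.03 and -0.18 in wild type cultures. In wild type cultures Pcgf5, Max, Mga, E2f6, Wdr5 and Foxk2 rose by 0.28 to 0.66, of which Max, Mga and E2f6 belong to the same variant PRC1 as L3mbtl2. Mga and E2f6 passed there narrowly (adjusted p = 0.0464 and 0.0455). In knockout cultures Max, Mga and E2f6 had 0.51, 0.50 and 0.42 and just missed the threshold (adjusted p = 0.0501, 0.0652 and 0.0700). Pcgf5, Wdr5 and Foxk2 had 0.10, 0.06 and 0.09 in knockout cultures. The interaction passed for 0 of the 34 genes.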

How the data were processed

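The deposited table holds linear signal intensity for 45101 probe sets on 10 Affymetrix mouse genome arrays. The submitters' processing notes name MAS5 and GCOS 1.2 for these values. Left out were 64 control probe sets, 932 with several symbols and 9160 with none. Signals were raised to a floor of 20.9 (the 25th percentile) and log2 was taken. Each gene took its probe set with the highest mean, and a gene was tested if that mean reached 6.25 on the log2 scale (signal 76.1), the median over non-control probe sets. All 10 arrays entered 1 fit of 4 group means with limma 3.58.1 in R 4.3.3, with 6 residual and 3.11 prior degrees of freedom, and 6 two-sided comparisons were each adjusted by Benjamini-Hochberg. The fit was tested on simulated data that held knockout differences only, each larger than any genotype difference of a Polycomb gene here. Those data held no Shh difference and no shared deviation of consecutive arrays, so they do not check the Shh calls. Errors are standard errors unless given as SD. The submitters call the cultures biological replicates without naming animals. The p-values rest on the spread between arrays within the 4 groups, moderated by a prior taken from all genes. The number of arrays limits the precision.

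The members, lists and tests were chosen with earlier results of these data known. Named are all members, with values per array for those past the threshold. Values per array of Yaf2, Suz12, Bcor, Kdm6a and of second probe sets were added after they were seen. Also named are other Polycomb genes past the threshold. Consecutive replicate numbers deviated together (correlations of 0.120 to 0.278 untreated, against -0.265 to 0.0529 for other pairings), a pairing known from the data alone. Replicates 1 to 6 were all untreated and replicates 7 to 10 all treated with Shh, so no pair spans both. Shh therefore cannot be told apart from any difference between those runs of numbers. Alternatives changed the floor, scaling, filter, choice of probe set, prior, samples and block.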

Additional observations from a re-analysis of the deposited data

Results flagged for a closer look

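The probe sets that were not used for the results above gave 15 calls among the Polycomb genes, all for Shh and all from the fit over every probe set past the filter. They are listed because they are signals outside the main measurement, and none was weighed for a cause.

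In knockout cultures, the other Mtf2 probe sets rose with Shh by log2 differences of 0.75 (1418515_at, adjusted p = 0.00163), 0.66 (1418514_at, adjusted p = 0.0199) and 0.79 (1449115_at, adjusted p = 0.0369). In wild type cultures the same 3 rose by 0.76 (adjusted p = 0.00115), 0.53 (adjusted p = 0.0400) and 0.93 (adjusted p = 0.0162). The second Cbx6 probe set, 1429290_at, rose by 0.62 in knockout and 0.71 in wild type cultures. Aebp2 rose by 0.69 on 1435070_at (adjusted p = 0.0187) and by 0.69 on 1437743_at (adjusted p = 0.0165) in knockout cultures. In wild type cultures it rose by 0.93 on 1437743_at (adjusted p = 0.00317) and had -1.17 on 1455616_at (adjusted p = 0.0173).

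The dimmest Rbbp4 probe set, 1456260_at, had -0.74 in knockout (adjusted p = 0.0486) and -0.98 in wild type cultures (adjusted p = 0.0135). It read 164 and 181 in knockout with Shh, against 277, 295 and 294 in untreated knockout cultures. Scmh1 had -1.29 on 1439554_at in wild type cultures (adjusted p = 0.0219), with signals of 49.8 and 71.7 with Shh, against 198, 133 and 119 untreated. The same probe set had 0.40 in knockout cultures (adjusted p = 0.445), and the interaction did not pass the test for any Polycomb probe set.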

How the results depend on the processing

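For genotype untreated, with Shh, averaged, and for the interaction, 0 Polycomb genes were called under every alternative run. For Shh in knockout cultures (3 genes), the count was 16 with arrays centred on a common median, 5 without the filter, 5 with probe sets without suffix (4 higher and Rbbp4 lower) and 5 with an intensity trend in the prior, and 2 to 4 with 1 array left out. For Shh in wild type cultures (6 genes), it was 20 with median centring and 2 to 6 with 1 array left out (2 without Shh replicate 7, 3 without replicate 9). Its other counts were 4 to 9, some with genes called lower. They were 7 higher and 2 lower with probe sets without suffix and 3 higher and 1 lower with the mean of all probe sets. With the intensity trend they were 6 higher and 1 lower. Mtf2 kept both calls in all 23 alternatives, and Eed kept each in 22. Eed lost them with the mean of all probe sets, which takes in its dim probe set under the filter. The average genotype difference of Yaf2 and Suz12 passed in 0 of 22 alternatives, with adjusted p-values of 0.0543 to 0.334 and 0.128 to 0.454. With consecutive numbers as pairs (replicate block) the member counts were 0, 0, 0, 3, 6 and 0 in the order untreated, Shh, average, Shh in knockout, Shh in wild type and interaction. The pairs were a fixed factor for genotype and interaction. For Shh they entered only as a correlation within pairs, which cannot separate Shh from replicate number. With the sex marker class as a covariate, chosen after seeing the data, the member counts were 0, 0, 0, 3, 5 and 0. No result reversed. Over all genes the counts ranged from 10 (without both arrays of high 18S signal) to 82 (trend) against 43 untreated (23 with the replicate block), from 3 (only the compared groups in the fit) to 131 against 83 with Shh, from 80 to 258 against 176 for the average, from 1893 to 5475 against 3199 for Shh in knockout, from 2380 to 6424 against 3855 in wild type cultures, and from 0 to 3 against 1 for the interaction. Cbx7 lay under the filter, Phf19 was dim and scattered, and Cbx8 had a large spread between arrays. The cause of these shifts was not tested.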
